A study of Mus musculus with 6 samples.

Results

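The smooth muscle contractile genes described here are 10 genes for smooth muscle actins and the proteins that work with them: Acta2, Actg2, Tagln, Cnn1, Cald1, Tpm1, Tpm2, Myl9, Mylk and Myh11. All 10 were measured, among 19938 genes in all. Each was read from a single probeset that the platform annotation pairs with that gene alone. Where a gene has several such probesets, the one with the highest mean over the 6 arrays was taken. The members were chosen by name as smooth muscle actins and their partners, with their log2 differences between E-cadherin knockdown and control clones, and the spread among the control clones, already known. Their differences between the groups are therefore given as a description of these clones, with their errors and without individual p-values, and the numbers of members past the threshold of the fit over all genes are given only to describe them. The other gene lists were also chosen with earlier results of these data known. Their counts and p-values are likewise given only as a description. The share of all genes at an unadjusted p below 0.05 was not counted, so counts at that threshold have no background beside them.

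Total RNA was measured in 6 lines of mouse induced pluripotent stem (iPS) cells, every one grown out from a single picked colony. Every line came from mouse embryonic fibroblasts (MEF) of the OG2 strain, whose transgene reports Oct4 activity by green fluorescence, and all were infected with retroviruses for Sox2, Klf4, Oct4 and c-Myc. The control lines (clones 2, 3 and 4) also received an shRNA against luciferase, an insect gene absent from mouse cells, and the shECAD lines (clones 4, 8 and 9) an shRNA against E-cadherin. Lines were kept on a feeder layer, from which they were separated before RNA was extracted, according to the labels. There is 1 array per line and n = 3 clones per group, which limits the precision. The labels name no separate infections, so the errors rest on differences between clones. Every SE and confidence interval comes from limma's moderated variances, which draw each gene's variance toward a value shared by all genes. They can therefore be narrower or wider than the spread of that gene's own clones would give. Fewer cells of a type and less RNA per cell cannot be told apart in such bulk samples.

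Smooth muscle shortens when myosin filaments pull on actin filaments. The actin filaments are built from smooth muscle actins and carry tropomyosin, caldesmon and calponin, while contraction is switched on when myosin light chain kinase phosphorylates the regulatory light chain of myosin. Most of these genes are classical targets of serum response factor (SRF), which binds a DNA element called the CArG box together with cofactors of the myocardin family. Several of them are also expressed outside muscle, in myofibroblasts and cultured fibroblasts.

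The promoter sequences are shown because the members are known as SRF targets. RefSeq promoter windows (build GRCm38.p6, 250 bases before to 50 bases after each gene's start) held 7 of the 10 members: Acta2, Cnn1, Cald1, Tpm1, Tpm2, Myl9 and Mylk. The set of windows searched held none for Actg2, Tagln or Myh11. The CArG box, a motif of 10 letters whose pattern is the same on both strands, was searched exactly and with 1 letter off. An exact CArG box stood in 1 of the 7 members, Myl9, 161 bases before the start, and in 1.63% of all 32851 windows. With 1 letter off it stood in 4 of the 7, Acta2, Cald1, Tpm1 and Myl9, and in 21.1% of all windows. The stretches that hold these matches are printed 5′ to 3′ on the gene's own strand, with each match in capitals. They lie at chr19:34255378-34255477 (minus strand) for Acta2, chr6:34598281-34598330 (plus strand) for Cald1, chr2:156775283-156775394 (plus strand) for Myl9 and chr9:67049264-67049454 (minus strand) for Tpm1.
Acta2: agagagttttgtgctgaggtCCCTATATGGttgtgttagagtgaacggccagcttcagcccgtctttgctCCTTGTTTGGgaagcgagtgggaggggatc
Cald1: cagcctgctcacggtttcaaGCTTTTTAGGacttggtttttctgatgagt
Myl9: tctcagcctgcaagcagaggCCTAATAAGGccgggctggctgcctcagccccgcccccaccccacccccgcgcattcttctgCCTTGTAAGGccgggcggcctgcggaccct
Tpm1: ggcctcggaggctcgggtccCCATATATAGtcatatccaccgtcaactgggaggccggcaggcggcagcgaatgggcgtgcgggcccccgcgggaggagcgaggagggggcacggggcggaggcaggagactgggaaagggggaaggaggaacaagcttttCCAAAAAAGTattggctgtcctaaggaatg
Acta2 and Myl9 each hold a pair of matches, 84 and 34 bases before the start in Acta2 and 161 and 99 bases before it in Myl9. In Tpm1 the matches begin 221 and 80 bases before the start, and the single match of Cald1 begins 203 bases before one of its 2 annotated starts. The motif CATTCC, which TEAD factors are known to bind, was searched on both strands and overlaps none of these matches. It stood in Acta2, Cald1, Tpm1 and Mylk, or 4 of 7 members, and in 14.7% of all windows. Cnn1 and Tpm2 held neither motif in this window. A match here is a description of the sequence and not a measured binding site.

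Of the 10 members, 8 were higher in the shECAD clones at a limma adjusted p below 0.05, taken over all genes, and 0 were lower. Of all 19938 genes, 1.9% were higher by the same rule, and since the comparison was known when the members were listed, nothing is read from the contrast of these shares. In 9 of the 10, every shECAD clone lay above every control clone, as in 11.1% of all genes. The median log2 difference (shECAD minus control) was 1.36 over the members and 0.03 over all genes. Without Acta2, the member with the largest difference, the median of the remaining 9 was 1.22. The 8 were Acta2, Actg2, Tagln, Cnn1, Cald1, Tpm1, Tpm2 and Myl9, and the 2 that did not pass were Myh11 and Mylk. Without shECAD clone 8 the 8 calls became 5, with Cald1, Tpm2 and Myl9 lost, and in a fit without variance moderation they became 0, where 9 members had an unadjusted p below 0.05.

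**Figure D1:**
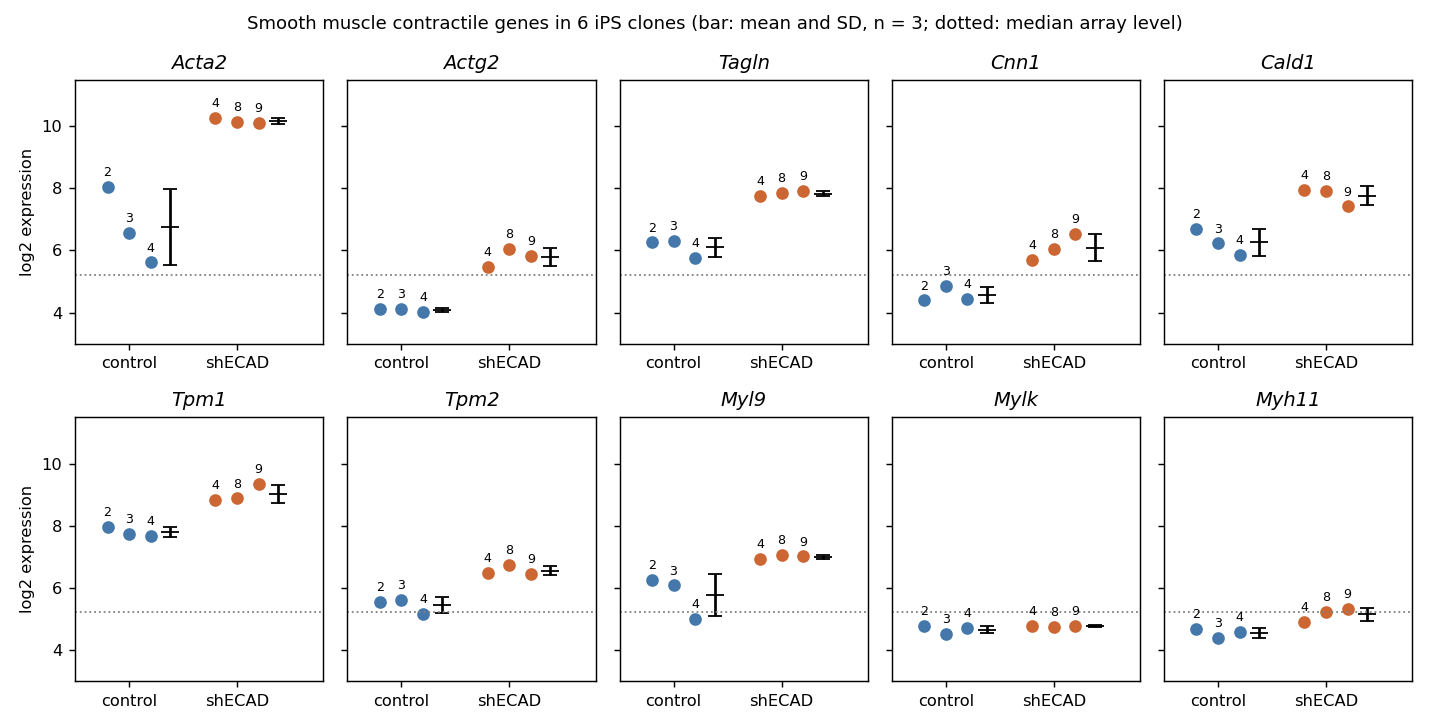
Log2 expression of the 10 members in each clone (points, labelled with the clone's number), with the mean and SD of each group of 3 clones beside them and the median array level as a dotted line. The shECAD points of every member but Mylk lie above the control points, and the control points of Acta2 are spread over 2.44 units.

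Acta2 encodes the smooth muscle alpha actin of blood vessels and myofibroblasts, the main actin of their contractile filaments. Its log2 level was 8.06 in control clone 2, 6.57 in control clone 3 and 5.62 in control clone 4, and 10.27, 10.13 and 10.11 in shECAD lines 4, 8 and 9. The control clones thus differed from one another by 2.44 log2 units, the shECAD clones by 0.16, and the lowest shECAD clone stood 2.05 above the highest control clone. The SD was 1.23 in the controls and 0.09 in the shECAD clones, and only 12 of 19938 genes had a larger SD among the controls. The difference was 3.42 ± 0.46 (SE), which is 10.7-fold with a 95% confidence interval from 5.28-fold to 21.8-fold, and 0 genes rose more. This SE and interval are moderated, and the SDs of the Acta2 clones alone would give a wider interval. The difference was 4.08 without control clone 2 and 2.86 without control clone 4.

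Actg2, the smooth muscle gamma actin of gut, bladder and other hollow organs, showed the reverse spread. It read 4.11 in control clone 2, 4.12 in control clone 3 and 4.01 in control clone 4, a range of 0.12 and below the median of each of those arrays. Values of 5.48, 6.05 and 5.82 followed in shECAD lines 4, 8 and 9, all above their arrays' medians. The log2 difference was 1.70 ± 0.17 (SE), or 3.25-fold (95% interval 2.49 to 4.24). The actin genes have very similar coding sequences, and whether each probeset reads its own actin alone was not tested.

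Among the proteins that coat the actin filament, Tagln showed the widest gap between the groups. Tagln encodes transgelin (SM22), an actin-binding protein used as an early marker of smooth muscle. Its level was 6.26, 6.30 and 5.75 in controls 2, 3 and 4 against 7.75, 7.84 and 7.90 in shECAD lines 4, 8 and 9, a gap of 1.45 between the nearest clones. The log2 difference was 1.73 ± 0.18 (SE), or 3.31-fold (95% interval 2.51 to 4.36), and the shECAD clones spanned 0.15. Cnn1 encodes calponin 1, which binds actin and slows myosin's ATPase. It read 4.39, 4.87 and 4.43 in the control clones, in the same order of clones, and 5.68, 6.05 and 6.54 in the shECAD clones. The groups did not overlap, and shECAD clone 9 stood highest. The log2 difference of Cnn1 was 1.53 ± 0.23 (SE), or 2.89-fold (95% interval 2.04 to 4.10).

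Cald1, the gene of caldesmon, which blocks the binding of myosin to actin until calcium rises, read 6.70, 6.22 and 5.85 in controls 2, 3 and 4. It read 7.94, 7.93 and 7.42 in shECAD lines 4, 8 and 9. Control clone 4 was lowest and control clone 2 highest, as for Acta2, and shECAD clone 9 was the lowest of its group. The log2 difference was 1.51 ± 0.23 (SE), or 2.84-fold (95% interval 1.99 to 4.05). Whether its probeset separates the long caldesmon of smooth muscle from the short form of other cells was not tested.

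The tropomyosin genes Tpm1 and Tpm2 encode the coiled rods that lie along the actin filament, and both also give isoforms outside smooth muscle. Tpm1 read 7.96, 7.74 and 7.67 in controls 2, 3 and 4 and 8.82, 8.88 and 9.34 in shECAD lines 4, 8 and 9. It lay above the 75th percentile of probesets on all 6 arrays, and its control clones differed by only 0.29. Its log2 difference was 1.22 ± 0.18 (SE), or 2.34-fold (95% interval 1.77 to 3.09). Tpm2 read 5.54, 5.62 and 5.15 in the control clones and 6.47, 6.73 and 6.46 in the shECAD clones, with a gap of 0.83 between the nearest clones. The log2 difference of Tpm2 was 1.12 ± 0.18 (SE), or 2.17-fold (95% interval 1.66 to 2.84). Tpm2 lost its call without control clone 4 or shECAD clone 8.

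The motor side of the apparatus was less even. Myl9, the regulatory light chain of smooth muscle myosin, read 6.24, 6.08 and 5.002 in controls 2, 3 and 4 and 6.93, 7.06 and 7.01 in shECAD lines 4, 8 and 9. Control clone 4 stood apart below the other controls, while the shECAD clones lay within 0.13 of each other. The log2 difference of Myl9 was 1.22 ± 0.28 (SE), or 2.33-fold (95% interval 1.52 to 3.58). Its call was lost when any clone other than control clone 2 was left out.

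Myh11 encodes the smooth muscle myosin heavy chain, the motor protein and the most specific single marker of differentiated smooth muscle. It read 4.68, 4.38 and 4.58 in controls 2, 3 and 4 and 4.91, 5.23 and 5.32 in shECAD lines 4, 8 and 9. The groups did not overlap, by a gap of 0.23, but the gene did not pass the test. The log2 difference was 0.61 ± 0.17 (SE), or 1.52-fold (95% interval 1.18 to 1.97), and only 2 of its 6 values exceeded the median of their array. Mylk, the kinase gene for the light chain, read 4.76, 4.51 and 4.70 in the control clones and 4.77, 4.74 and 4.78 in the shECAD clones. Its groups overlapped and it lay below the array median on all 6 arrays. The log2 difference of Mylk was 0.11 ± 0.15 (SE), with a 95% interval from -0.22 to 0.43, and after quantile normalization it was -0.02.

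The controls were uneven in these genes. Control clone 4 was the lowest control in 7 of the 10 members, where it was the lowest control in 29.2% of all genes. It was the highest control in 0 members, and the share of all genes for this was not counted. The median SD of the members was 0.26 among the control clones and 0.18 among the shECAD clones, against medians of 0.19 and 0.20 over all genes. The SD was larger in the controls for 6 of the 10 members, among them Acta2, Tagln and Myl9, and for 46.9% of all genes. It was larger in the shECAD clones for Actg2, Cnn1, Tpm1 and Myh11. The spread among the controls was known when the members were chosen, so these values are a description. Relative to each gene's control mean, the median member stood at 0.15 in control clone 2, 0.005 in control clone 3 and -0.21 in control clone 4. It stood at 1.14, 1.39 and 1.39 in shECAD lines 4, 8 and 9. Single members were spread more widely there, with ranges over the shECAD clones of 0.86 for Cnn1, 0.57 for Actg2 and 0.52 for Tpm1.

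Most markers of fibroblasts were also higher in the shECAD clones. Of 24 measured fibroblast and feeder cell markers (25 were listed), 15 were higher at a limma adjusted p below 0.05 and 0 lower. Of all genes, 1.9% were higher by the same rule. At an unadjusted p below 0.05, 21 of the markers were higher and 0 lower. The mean log2 level of these markers ran from 5.62 to 6.64 over the controls and from 7.22 to 7.52 over the shECAD lines. The 5 largest differences were in the matrix and matrix-modifying genes Lox, Postn, Ccdc80, Col1a1 and Col1a2, with 2.35, 2.26, 2.05, 1.97 and 1.84 on the log2 scale. In 20 of the 24, every shECAD clone lay above every control clone, as in 11.1% of all genes. The groups overlapped in Lum, Dcn, Pdgfra and Col3a1, named for this overlap. Their differences were -0.23, 0.48, 0.38 and 0.82, and none passed. Among the controls, 21 of the 24 markers were highest in clone 2 and 21 lowest in clone 4, the clones with the highest and lowest Acta2. Control clone 4 was the lowest control in 29.2% of all genes, and the share of all genes highest in control clone 2 was not counted. Relative to the control mean, the median marker stood at 0.54, 0.01 and -0.53 in controls 2, 3 and 4 and at 0.87, 1.19 and 0.94 in shECAD lines 4, 8 and 9. Of the 24 markers, 0 lay below the 25th percentile on all 6 arrays. Their part in the differences of the contractile genes was not tested. The 15 calls became 6 if control clone 3 or shECAD clone 4 was left out, 7 if control clone 4, 4 if shECAD clone 8 and 8 if shECAD clone 9 was.

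**Figure D2:**
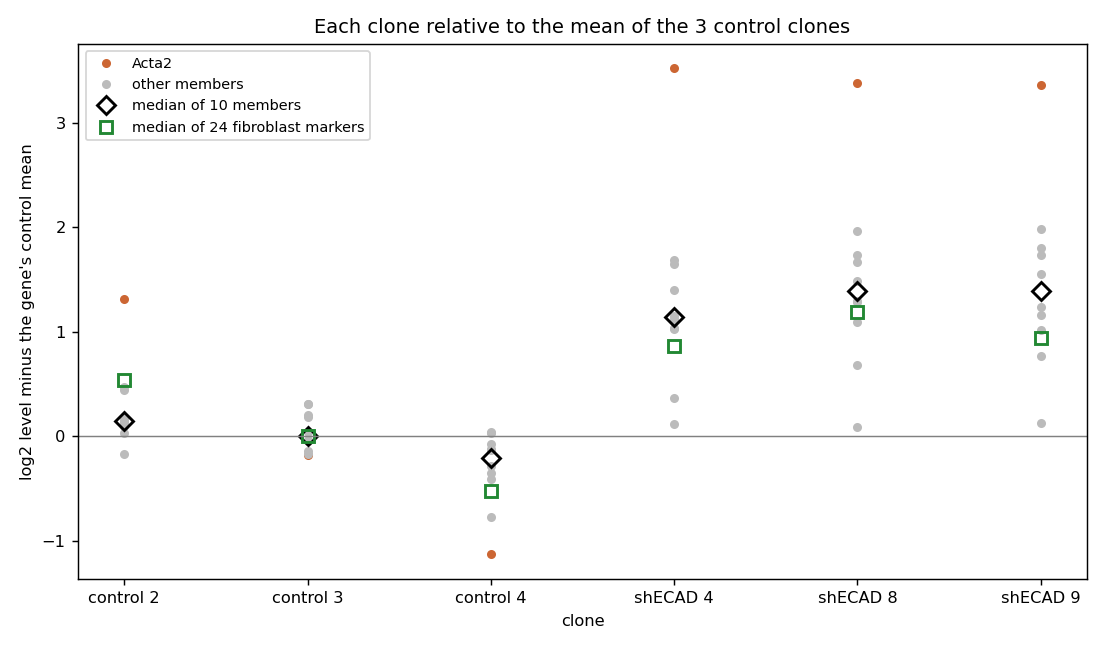
Log2 level of each member in each clone minus that gene's mean over the 3 control clones, with Acta2 in orange, the other members in grey, the median member as a diamond and the median fibroblast marker as a square. Both medians are highest among the controls in clone 2 and lowest in clone 4, and both lie above every control value of their own in the shECAD clones, at 1.14 or more for the members and 0.87 or more for the fibroblast markers.

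As checks of the labels, Cdh1, the E-cadherin gene, read 9.28 ± 0.28 (SD) in the control and 7.16 ± 0.57 in the shECAD clones, 22.9% of the control level (limma adjusted p = 0.00683). Pou5f1 (Oct4) and Nanog, which define pluripotent cells, lay above the 75th percentile on all 6 arrays. All lines had received viral Oct4 and Sox2, and whether the probesets of Pou5f1 and Sox2 also read the viral copies was not tested. Of 12 pluripotent cell markers, 0 passed the test with limma, where 3.12% of all genes passed in either direction. At an unadjusted p below 0.05, 4 were lower and 0 higher. The groups did not overlap in 3 markers, all lower, where they did not overlap in 23.6% of all genes. Among the 12 markers, the largest differences were -0.81 for Esrrb, -0.79 for Fgf4 and -0.55 for Tfcp2l1. In pericyte and endothelial markers, 0 of 12 passed with limma, beside the same 3.12% of all genes (2 higher and 2 lower at an unadjusted p below 0.05). Their groups did not overlap in 2 higher and 3 lower genes, beside the same 23.6%. Their mean level ran from 5.14 to 5.35 over the controls and from 5.20 to 5.44 over the shECAD lines. The differences furthest from 0 were -0.72 for Pecam1, 0.70 for Kdr and -0.69 for Mcam. Over all genes, 623 passed, 378 higher and 245 lower, and with every array's median set to 0 the count was 680, 303 higher and 377 lower.

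Other structural genes of smooth muscle had a median difference of 0.43, against 1.36 for the members. Of 20 measured genes (21 listed), 1 rose and 0 fell at a limma adjusted p below 0.05, where 3.12% of all genes passed in either direction, and 12 were higher at an unadjusted p below 0.05. The gene that rose was Csrp1, which encodes a LIM protein of the actin cytoskeleton, by 1.24 ± 0.19 (SE) in log2 units (limma adjusted p = 0.012). Des, the gene of the muscle intermediate filament desmin, and Smtn, the gene of smoothelin of contractile smooth muscle, had differences of 0.18 ± 0.17 and 0.07 ± 0.15. Neither passed the test, and in both the groups overlapped. In 12 of the 20 genes, however, every shECAD clone lay above every control clone, as in 11.1% of all genes. Pdlim3, named after its values were seen, had the largest difference among those that did not pass, 1.07 ± 0.26 (SE). Without shECAD clone 4 the list held 2 calls.

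Among SRF and its cofactors, 1 of 13 genes rose and 0 fell with limma, where 1.9% of all genes rose and 1.23% fell. At an unadjusted p below 0.05, 4 were higher and 1 lower, and the median was 0.27. The gene that rose was Fhl1, which encodes a LIM protein of muscle, by 1.31 ± 0.22 (SE, limma adjusted p = 0.0153). Srf itself had a log2 difference of 0.14 ± 0.21 and did not pass the test. Myocd, the gene of the muscle-restricted cofactor myocardin, lay below the array median on all 6 arrays with a difference of 0.27 ± 0.17. The myocardin-related cofactor genes Mrtfa and Mrtfb had differences of 0.10 ± 0.15 and -0.09 ± 0.17. None of these 4 genes passed. Csrp2, a LIM protein gene singled out after its values were seen, had a difference of -0.59 ± 0.20 and did not pass, with every shECAD clone below every control clone. Without control clone 2 the list held 2 calls.

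The immediate early genes that SRF also drives, together with ternary complex factors, gave a median difference of -0.01. Of 9 genes, 0 rose and 1 fell with limma, and 1 was higher at an unadjusted p below 0.05. Of all genes, 1.9% rose and 1.23% fell with limma. The gene that fell was Ier2, by 0.76 in log2 units (limma adjusted p = 0.0287), and it lost its call when any clone other than control clone 2 was left out. Fos and Egr1, the best known of the group, had differences of -0.30 and 0.16 and did not pass.

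**Figure D3:**
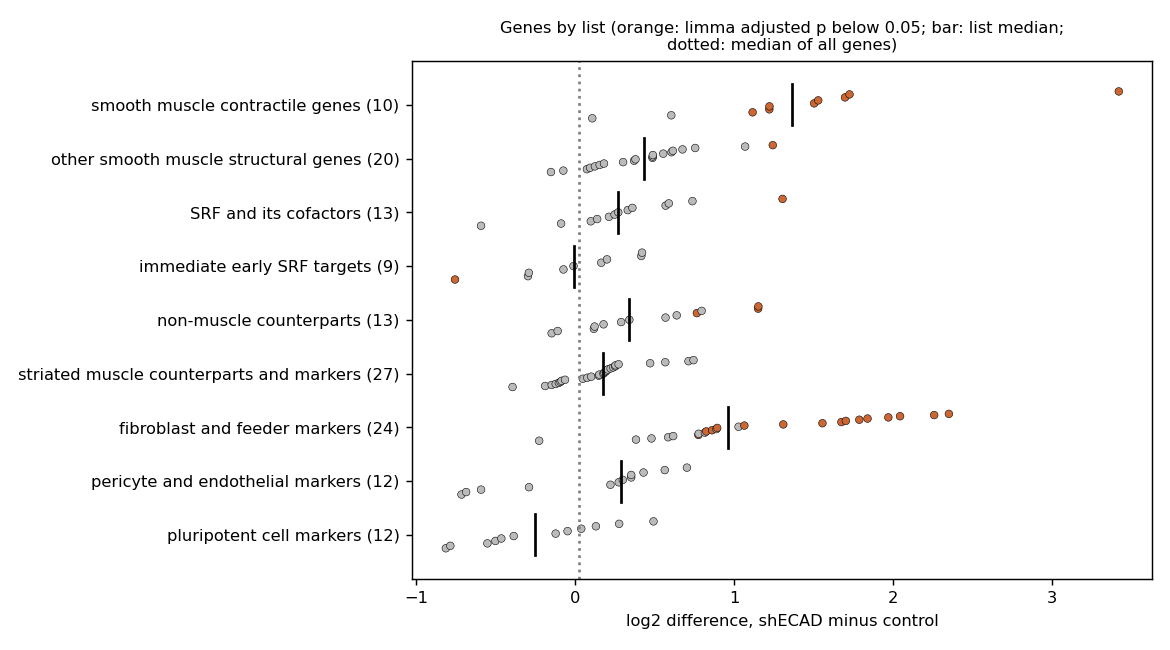
Log2 difference (shECAD minus control) of each measured gene, by list, with the list's size in brackets, genes at a limma adjusted p below 0.05 in orange, list medians as bars and the median of all genes, 0.03, as a dotted line. The contractile genes (median 1.36) and fibroblast markers (0.96) lie to the right of the other lists, whose medians run from -0.25 to 0.43.

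Each contractile protein has relatives in other cells, and these gave mixed values. Of 13 measured non-muscle counterparts (14 listed), 3 rose and 0 fell with limma, with a median of 0.34. Of all genes, 1.9% rose and 1.23% fell. Tpm4, a tropomyosin of the cytoskeleton, rose by 1.15 ± 0.18 (SE) and Cnn2, the calponin of non-muscle cells, by 1.15 ± 0.21, beside 1.22 for Tpm1 and 1.53 for Cnn1. Myh9, a non-muscle myosin heavy chain gene, rose by 0.77 ± 0.16, beside 0.61 for Myh11, which did not pass. With the mean of its probesets the difference of Myh9 was 0.44 and it did not pass either, and it also lost its call when any clone other than control clone 2 was left out. In the order Tpm4, Cnn2 and Myh9, the limma adjusted p-values were 0.0123, 0.0199 and 0.0351. The family members Tpm3 and Cnn3 had differences of 0.18 and -0.11, the light chain genes Myl12a and Myl12b 0.34 and -0.15, and the cytoskeletal actin gene Actb 0.12, and none passed. Tagln3, Tagln2 and Myh10 had larger differences, 0.80, 0.64 and 0.57, and did not pass either. At an unadjusted p below 0.05, 6 of the 13 genes were higher and 0 lower. In 8 of the 13, every shECAD clone lay above every control clone, as in 11.1% of all genes. Whether relatives within a family differ from one another was not tested. The 3 calls became 2 with the mean of probesets, 0 without control clone 4 and 1 without shECAD clone 8.

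The striated muscle counterparts and markers held 0 calls among 27 genes with limma, where 3.12% of all genes passed in either direction. At an unadjusted p below 0.05, 2 were higher and 0 lower, and the median was 0.18. The largest differences were 0.75 ± 0.18 (SE) for Acta1, the skeletal muscle actin gene, 0.71 ± 0.18 for Tnnc1, a troponin gene of heart and slow muscle, and 0.57 ± 0.30 for Actc1, the cardiac actin gene. Acta1 and Tnnc1 had groups that did not overlap, by gaps of 0.30 and 0.33. In Actc1, shECAD clone 9 stood alone at 7.32, with the other 5 clones between 5.84 and 6.20. The myogenic regulator genes Myod1 and Myog had differences of 0.47 and 0.19. The list held 1 call, Acta1, without control clone 2, with brighter genes alone or with the intensity trend, and 2, Acta1 and Tnnc1, with array weights.

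**Figure D4:**
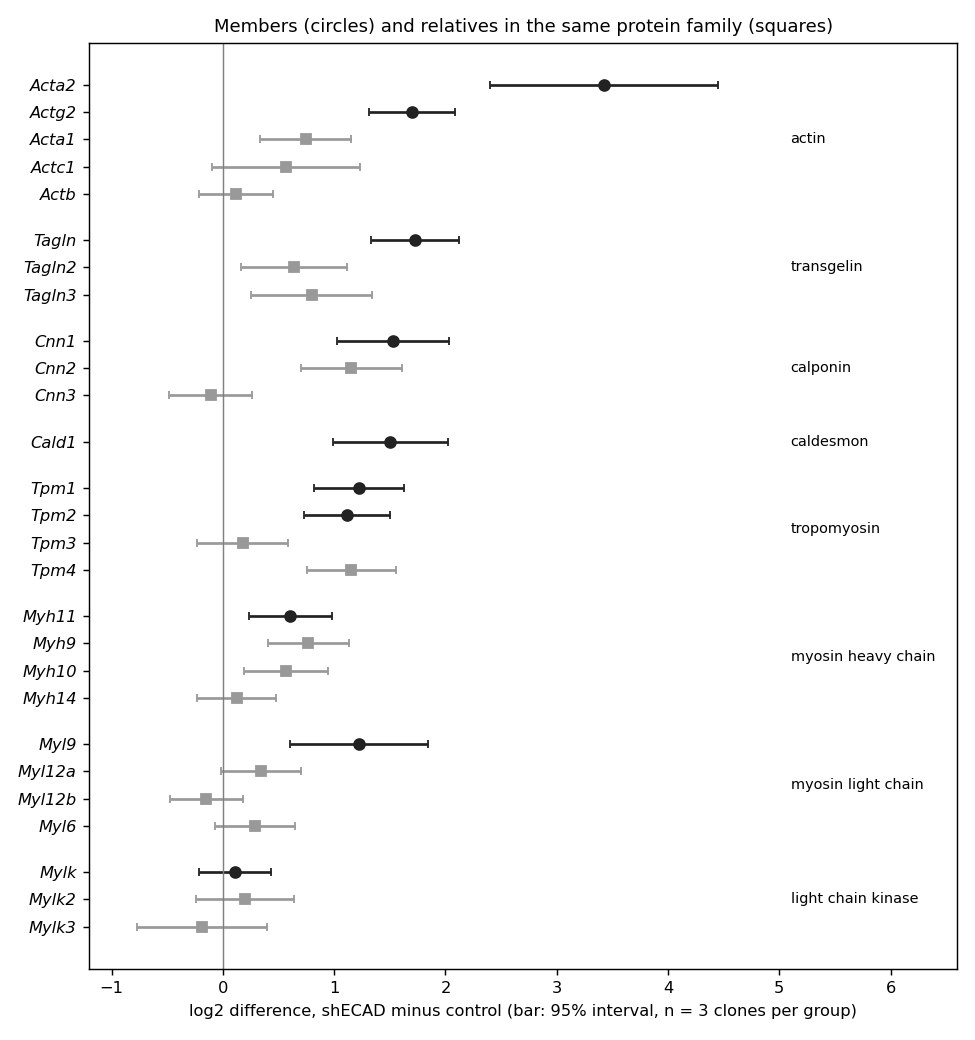
Log2 difference (shECAD minus control) with its 95% confidence interval for the members (circles) and their measured relatives (squares), ordered by protein family, from 3 clones per group. Acta2 stands furthest to the right at 3.42, and the light chain kinase genes lie around 0, with Mylk at 0.11. The intervals use limma's moderated variances.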

How the data were processed

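The deposited values are log2 expression per probeset of Affymetrix whole-transcript arrays, made by the authors with RMA and Partek according to the submitters' processing notes. The genome build, settings and versions are not stated there. The 28853 probesets were named by the platform annotation (21789 with 1 gene, 1621 with several, 5443 with none), and 21698 of those with 1 gene matched RefSeq. The brightest single-gene probeset stood for each gene. Groups were compared over 19938 genes with limma 3.58.1 (lmFit, eBayes) in R 4.3.3, without covariates, with Benjamini-Hochberg adjustment over all genes and calls below 0.05. Array medians ran from 5.11 to 5.30. The members and the 8 other lists reported were chosen with earlier results of these data known. Named genes are the members, Cdh1, up to 5 called genes of each list by size (otherwise the 3 largest differences) and genes that define a list or belong to a member's protein family. Other genes are named for their values, as stated where they appear. On simulated data for this comparison (19938 genes), the fit recovered 0% of changes of 0.5, 60% of changes of 1 and 100% of changes of 2, with 1 false call. One further list is not reported here. Alternatives were other scalings, filters, probeset rules, variance models and weights, an adjusted p of 0.1 and leaving out each clone. Figures used matplotlib 3.10.9.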

Additional observations from a re-analysis of the deposited data

How the results depend on the processing

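The 8 calls among the contractile genes were kept after median centring, quantile normalization, averaging of probesets, a robust prior with an intensity trend and array weights. With brighter genes alone 6 of the 6 members still in the fit were called, and without variance moderation 0. With 1 clone left out the number ran from 5 to 8. Mylk turned to -0.0211 after quantile normalization. Over all genes the 623 calls became 3 without moderation, 1067 with array weights, 1278 at an adjusted p of 0.1, and 146 to 543 with 1 clone left out. The other smooth muscle structural genes, with 1 call, held 2 after quantile normalization or with brighter genes alone, 4 with the intensity trend, 3 with array weights, 5 at an adjusted p of 0.1, 0 without moderation, and 1 to 2 with 1 clone left out. No paired analysis was made. The groups share only clone number 4, and the labels do not say that a shared number pairs clones.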

Other observations

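Genes with an exact CArG box in their promoter window can be described in the same way, as values without a test. Of 15614 measured genes with a RefSeq window, 254 held an exact box, and of these 10 (3.94%) rose and 3 (1.18%) fell in shECAD clones at a limma adjusted p below 0.05. Among all 15614 genes the shares were 1.76% and 1.29%, and the median log2 differences were 0.08 with a box and 0.01 over all. The 5 largest rises among the 10 were in Anxa5, a calcium-dependent membrane-binding protein gene, with a log2 difference of 2.02 ± 0.33 (SE), Fhl1 with 1.31 ± 0.22, Myl9 with 1.22 ± 0.28, Cnn2 with 1.15 ± 0.21 and Dnm3os with 1.04 ± 0.21. The other 5 were Lurap1l, Ldha, Lama2, Rcn2 and Lclat1, between 0.61 and 0.81. The 3 that fell were Iah1, Zfp619 and C2cd5, with -0.66, -0.89 and -1.06. These genes were named after their values were seen. Srf, which holds exact boxes 82 and 62 bases before its own start, did not pass the test, with a difference of 0.14.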
